A study of Mus musculus with 4 samples.

Results

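The 9 genes described here encode subunits of the Polycomb repressive complexes and were chosen by name, as the listed subunits on all 4 arrays of the series. All 9 had a named probe set, out of 23185 named genes. They are the PRC2 genes Ezh1, Ezh2, Eed, Suz12 and Jarid2 and the PRC1 genes Cbx2, Cbx7, Cbx8 and Bmi1. The label of a switch between Cbx paralogs was set against the data. The 3 Cbx genes did not show a reciprocal exchange, because Cbx7 was low in both doxycycline-treated cultures while Cbx2 stayed within 2-fold of its Day0 signal there, and both were high in iPS cells.

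The series holds 4 mouse cell populations, each measured on a single Affymetrix array. The Day0 cells were labelled as fresh isolates of club cells from adult lung and had not been cultured. Club cells line the airways and secrete proteins into them. The 3W+Dox cells are club cells kept for 3 weeks in medium with doxycycline, an antibiotic used to turn on inducible transgenes, and are called Club-iPL in the labels. The 3W+Dox+2W-Dox cells, called withdrawn cells here, had the same 3 weeks of the drug and then 2 weeks without it. The iPS cells are induced pluripotent stem cells made from club cells. Strain, transgenes and their promoters, the number of mice pooled, the way the isolate was purified and whether the iPS cells are 1 clone are not stated in the labels.

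Polycomb proteins keep developmental genes silent and pass that silence on through cell division. PRC2 methylates histone H3 on a lysine of its tail through Ezh2 or its paralog Ezh1, which work in a core with Eed and Suz12. PRC1 compacts chromatin and ubiquitylates histone H2A, and its canonical form is guided to methylated H3 by a chromobox (Cbx) subunit beside a Pcgf subunit such as Bmi1. Cbx7 is known as the main Polycomb chromobox protein of pluripotent stem cells, and Cbx2 and Cbx8 as ones used more in differentiating cells.

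Signals are log2 values made by the authors with RMA, and a difference of 1 log2 unit is 2-fold. With 1 array per population no spread between replicates can be estimated, no p-value is given, and no difference below has a replicate check. A gene is called higher or lower when a pair of signals differ by 2-fold or more and the brighter of them reaches 6.67, the median over the whole table. Each probe set has its own brightness, so genes are compared mainly by their differences between arrays. Ranks of brightness among named genes and summed marker signals do set signals of different genes together. They are rough descriptions, and the brightest probe sets weigh most in the sums. Of 4 club cell markers, 4 were at or above 6.67 at Day0 and 1 in iPS cells, and of 8 pluripotency markers 1 and 7. All 5 alveolar type 2 markers, all 4 alveolar type 1 markers and 5 of 6 ciliated cell markers were also at or above 6.67 at Day0. For endothelial markers it was 1 of 4, for fibroblast markers 2 of 8, for macrophage markers 3 of 8 and for leukocyte markers 0 of 3. All 8 fibroblast markers and all 8 macrophage markers exceeded their Day0 signals at least 4-fold at 3W+Dox, with median differences of 5.66 and 3.81. In such bulk RNA, fewer cells of a type and less RNA per cell cannot be told apart.

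The PRC2 core subunits had near-equal signals in the 3 lung populations, and Ezh2, Eed and Suz12 were 3.46-fold to 4.96-fold higher in iPS cells than at Day0, while Ezh1 was not. Ezh2 (Entrez gene 14056), the methyltransferase typical of dividing cells, read 9.31 at Day0, 9.24 at 3W+Dox, 9.14 after withdrawal and 11.59 in iPS cells. Suz12 (Entrez gene 52615), which holds the PRC2 core together, read 9.27, 9.26, 9.25 and 11.58 on the same arrays. Eed (Entrez gene 13626), which binds the methyl mark that PRC2 leaves, read 9.06, 8.90, 8.85 and 10.85. Each of these 3 genes was thus high in iPS cells alone, and its other 3 signals lay within 0.21 log2 units of each other. The iPS differences from Day0 were 2.28 for Ezh2, 2.31 for Suz12 and 1.79 for Eed. Set on the span from Day0 to iPS, the 3W+Dox cells stood at -2.73% for Ezh2, -0.71% for Suz12 and -8.68% for Eed, and the withdrawn cells at -7.12%, -1.12% and -11.8%. Both cultures thus lay close to Day0 for all 3 genes, and the side turned for Suz12 after withdrawal under a second quantile normalization (a difference from Day0 of 0.02 in place of -0.03).

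Ezh1 (Entrez gene 14055), the paralog of Ezh2 found also in resting cells, read 9.75 at Day0, 9.67 at 3W+Dox, 9.34 after withdrawal and 9.77 in iPS cells. Its range over the 4 arrays was 0.43, against 2.44 for Ezh2, and 22.8% of named genes had a smaller range than Ezh1. From Day0 to iPS the log2 ratio of Ezh2 to Ezh1 differed by 2.25, which is 4.77-fold in favour of Ezh2, and from Day0 to 3W+Dox it differed by 0.02. Jarid2 (Entrez gene 16468), an accessory subunit that helps PRC2 bind chromatin, read 9.78, 9.59, 9.33 and 12.18. It had the largest iPS difference from Day0 of the 9 genes, 2.40 or 5.27-fold, and was brighter than 99.2% of named genes on the iPS array. Its signal in withdrawn cells was 0.45 below Day0, so the iPS cells stood 2.84 above the withdrawn cells.

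**Figure D1:**
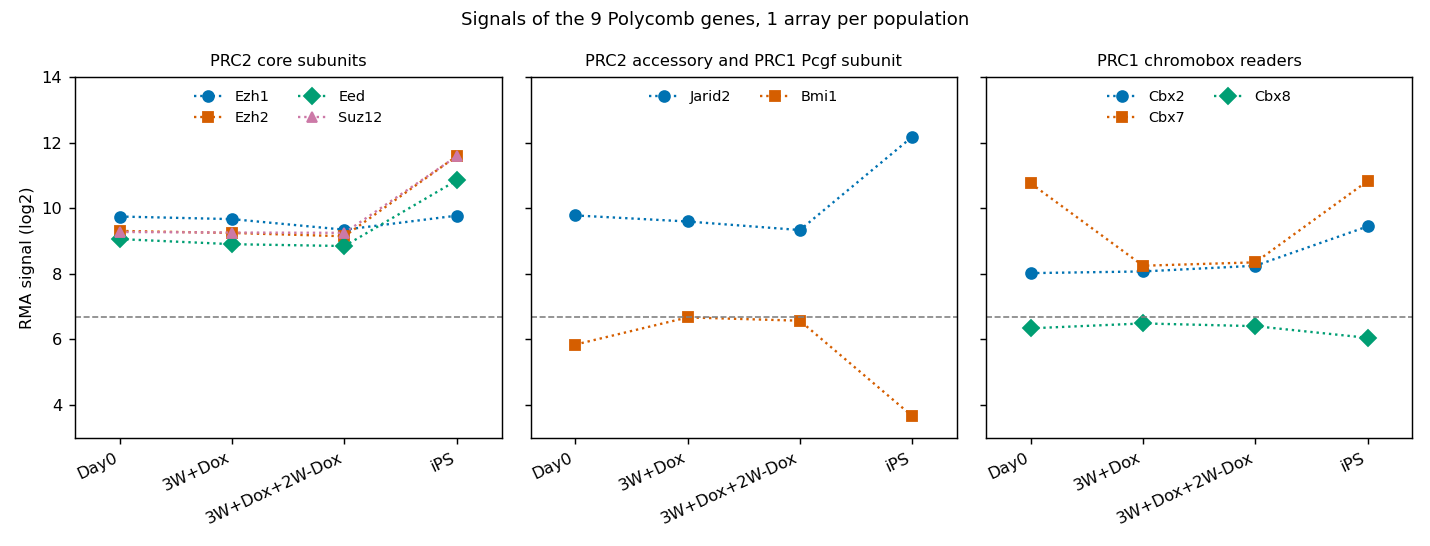
RMA signals (log2, vertical axis) of the 9 genes on the 4 arrays (horizontal axis), in 3 panels by role, with the median of all values (6.67) as a dashed line. Each point is 1 array, and dotted lines join points of a gene and stand for no time course through iPS. Ezh2, Eed, Suz12 and Jarid2 lie high in iPS cells alone, Cbx7 is low in both cultures, and Bmi1 is lowest in iPS cells.

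The DNA upstream of the genes is shown for Ezh2, Eed and Suz12, which were high together on the iPS array, and for Cbx7, which followed another pattern. The RefSeq promoter table, on the mouse build GRCm38.p6, held 9 windows for 8 of the 9 genes and none for Cbx2. The sequences are the 250 bases before an annotated start, 5′ to 3′ on the strand of the gene, with CpG dinucleotides, the sites of DNA methylation and of CpG islands, in capitals. The windows are chr6:47595031-47595280 (minus strand) for Ezh2, chr7:89980977-89981226 (minus strand) for Eed, chr11:79992856-79993105 (plus strand) for Suz12 and chr15:79932647-79932896 (minus strand) for Cbx7.
Ezh2: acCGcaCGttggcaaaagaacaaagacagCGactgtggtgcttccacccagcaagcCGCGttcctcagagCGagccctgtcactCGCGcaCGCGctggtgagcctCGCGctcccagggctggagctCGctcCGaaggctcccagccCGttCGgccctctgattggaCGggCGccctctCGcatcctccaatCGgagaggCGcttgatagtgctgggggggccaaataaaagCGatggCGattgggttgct
Eed: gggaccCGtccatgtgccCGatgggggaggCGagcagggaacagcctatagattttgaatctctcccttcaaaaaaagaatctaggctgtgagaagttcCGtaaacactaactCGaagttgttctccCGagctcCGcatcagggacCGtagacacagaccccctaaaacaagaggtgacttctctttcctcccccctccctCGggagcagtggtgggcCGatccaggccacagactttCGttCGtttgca
Suz12: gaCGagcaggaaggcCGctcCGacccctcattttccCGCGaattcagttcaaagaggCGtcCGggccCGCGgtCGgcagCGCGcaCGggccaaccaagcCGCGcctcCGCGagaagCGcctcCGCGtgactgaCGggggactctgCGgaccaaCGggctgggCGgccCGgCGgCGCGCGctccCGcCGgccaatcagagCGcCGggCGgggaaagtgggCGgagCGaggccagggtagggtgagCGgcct
Cbx7: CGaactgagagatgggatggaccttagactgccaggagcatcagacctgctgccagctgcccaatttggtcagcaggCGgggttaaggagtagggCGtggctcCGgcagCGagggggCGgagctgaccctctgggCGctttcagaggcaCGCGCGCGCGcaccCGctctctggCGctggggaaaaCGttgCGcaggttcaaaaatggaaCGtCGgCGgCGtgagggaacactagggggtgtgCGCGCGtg

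These windows held 23 CpG dinucleotides for Ezh2, 12 for Eed, 37 for Suz12 and 23 for Cbx7. The median over 32851 promoter windows of the table was 6, and 97.8% of them held fewer CpG than that of Suz12. All 9 windows of the Polycomb genes lay above that median, with 12 to 37 CpG. Ezh2 and Cbx7 held the same number while their signals followed different patterns over the arrays. A search on both strands for the E2F motif, the binding sequence of the cell cycle factors of that name, written as TTTGGCGC, TTTCCCGC, TTTGCCGC or TTTCGCGC, found 1 match. It was TTTCCCGC in the window of Suz12, 219 to 212 bases before the start, and a match to one of the 4 was held by 1.86% of all windows and by 4.34% of those with at least 15 CpG. The arrays read exons and do not show which start was used.

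Among the chromobox genes, Cbx7 (Entrez gene 52609) read 10.76 at Day0, 8.24 at 3W+Dox, 8.35 after withdrawal and 10.83 in iPS cells. Its signal was low in both cultures, and those of Day0 and iPS cells were close to each other. At 3W+Dox it was 5.70-fold below Day0, a log2 difference of -2.51, which placed it 422nd from the bottom of 23185 named genes. Withdrawal undid 4.12% of that difference, and withdrawn cells were still 5.31-fold below Day0. The iPS cells differed from Day0 by 0.07 and stood 5.99-fold above the 3W+Dox cells. Cbx7 was brighter than 93.8% of named genes at Day0, 66.3% at 3W+Dox, 68.2% after withdrawal and 94.1% in iPS cells.

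Cbx2 (Entrez gene 12416), a chromobox subunit that compacts chromatin, read 8.02 at Day0, 8.07 at 3W+Dox, 8.24 after withdrawal and 9.44 in iPS cells. It was high in iPS cells, 2.68-fold above Day0, and withdrawn cells stood at 15.8% of the span from Day0 to iPS. Cbx8 (Entrez gene 30951), a further chromobox subunit, read 6.33, 6.48, 6.40 and 6.04. All 4 of its signals lay below 6.67, so it was dim throughout, and its range of 0.44 was below that of most named genes. Cbx2 and Cbx8 are neighbours on mouse chromosome 11 in the RefSeq gene table (GRCm38.p6). The iPS difference from Day0 was 1.42 for Cbx2 and -0.29 for Cbx8, so these neighbours differed by 3.28-fold in their response. The log2 ratio of Cbx2 to Cbx7 was higher by 2.56 at 3W+Dox than at Day0, and its 2 terms were 0.05 for Cbx2 and -2.51 for Cbx7. From 3W+Dox to iPS the same ratio was lower by 1.21, with Cbx7 higher by 2.58 and Cbx2 by 1.37.

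Bmi1 (Entrez gene 12151), the Pcgf subunit known for repressing the Cdkn2a locus, read 5.84 at Day0, 6.67 at 3W+Dox, 6.57 after withdrawal and 3.66 in iPS cells. It was lowest in iPS cells, where 8.84% of named genes were dimmer, and a little higher in the cultures than at Day0. The difference was 0.83 between 3W+Dox and Day0 and -2.18 between iPS and Day0. All 4 of its signals lay below the median of all values, that of 3W+Dox by less than the rounding, so Bmi1 is not called in any comparison. Its iPS signal is near background, so a fold would be inexact. Without the filter on dim probe sets Bmi1 is called lower in iPS cells against each of the other 3 populations, and with signals below 5.07, the 25th percentile, raised to that value its iPS difference from Day0 was -0.77.

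In the cultures 0 or 1 of the 9 genes were called in each direction, close to the shares of all named genes. Between 3W+Dox and Day0, 1 of the 9 was called lower (Cbx7) and 0 higher, beside 7.52% of all named genes called lower and 8.67% higher. The median difference was -0.06 over the 9 genes and -0.09 over all named genes. Between withdrawn and 3W+Dox cells 0 of the 9 were called in either direction, beside 1.45% of all named genes called higher and 1.88% lower, and their differences ran from -0.32 for Ezh1 to 0.17 for Cbx2. Between withdrawn cells and Day0, 1 of the 9 was called lower (Cbx7) and 0 higher, beside 7.76% and 7.85% of all named genes.

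In iPS cells against Day0, 5 of the 9 were called higher (Ezh2, Eed, Suz12, Jarid2 and Cbx2) and 0 lower, beside 13.1% and 12.4% of all named genes. The median difference was 1.42 over the 9 genes and 0.00 over all named genes. At 4-fold, 3 of the 9 were higher, Ezh2, Suz12 and Jarid2, beside 4.89% of all named genes. Against 3W+Dox cells 6 of the 9 were called higher in iPS cells, Cbx7 among them, and 0 lower, beside 11.4% and 12.4% of all named genes, with a median difference of 1.95 beside 0.06. Against withdrawn cells 6 of the 9 were again called higher and 0 lower, beside 11.5% and 12.5%, with a median of 2.00 beside 0.02. The comparisons with iPS cells share the iPS array, and those with Day0 share the Day0 array.

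**Figure D2:**
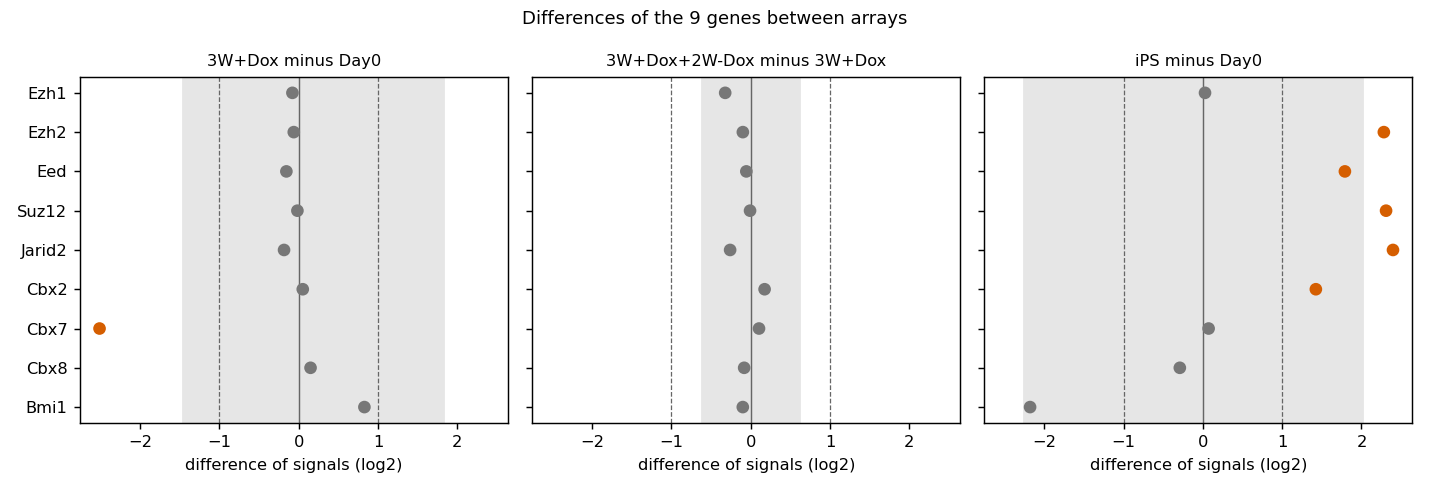
Differences of RMA signals (log2, horizontal axis) of the 9 genes (rows) in 3 comparisons, with genes called at 2-fold in orange and others in grey. The shaded band holds the named genes between the 5th and 95th percentile of each comparison, and dashed lines mark 2-fold. Cbx7 lies at -2.51 outside the band on the left, all 9 genes lie inside it after withdrawal, and Ezh2, Suz12 and Jarid2 lie beyond it in iPS cells.

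The other genes of the Polycomb system were taken from a list, and 38 of them are described here. Between 3W+Dox and Day0, 1 of 38 was called higher and 1 lower, beside 8.67% and 7.52% of all named genes. The median difference of the 38 was -0.02. The gene called higher was Auts2, a subunit of a PRC1 form linked to gene activation, which read 7.18 at Day0 and 8.72 at 3W+Dox. The gene called lower was Phf1, a Polycomb-like subunit of PRC2, which read 9.22 and 8.17 on these arrays. Between withdrawn and 3W+Dox cells 0 of 38 were called, with differences from -0.57 to 0.37. Of all named genes 1.45% were called higher there and 1.88% lower. In iPS cells against Day0, 15 of 38 were called higher and 2 lower, beside 13.1% and 12.4% of all named genes. The median difference of the 38 was 0.71.

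Among the 8 other PRC2 genes, 4 were called higher and 1 lower in iPS cells than at Day0. Over all named genes the shares were 13.1% and 12.4%. The 3 Polycomb-like genes, whose products link PRC2 to CpG-rich DNA, differed in direction. Mtf2 read 8.57 at Day0, 8.37 at 3W+Dox, 8.12 after withdrawal and 11.65 in iPS cells, 8.41-fold above Day0. Phf1 read 9.22, 8.17, 8.40 and 7.05, 4.50-fold below Day0 in iPS cells, and Phf19 read 6.90, 6.06, 6.31 and 7.95. Mtf2 was thus high and Phf1 low on the iPS array. Epop, an accessory subunit found in embryonic stem cells, was 4.26-fold higher in iPS cells than at Day0. Ezhip, an inhibitor of PRC2, was 2.12-fold higher with a signal of 6.88 that is close to the median of all values. Rbbp4 and Rbbp7, the histone-binding subunits, were higher by 0.90 and 0.96 and were not called.

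Of 24 other measured PRC1 genes, 10 were called higher in iPS cells than at Day0 and 1 lower. Over all named genes the shares were 13.1% and 12.4%. Phc1, a polyhomeotic subunit of canonical PRC1, read 8.33 at Day0, 8.86 at 3W+Dox, 8.29 after withdrawal and 11.75 in iPS cells, and its 10.7-fold difference was the largest of the 38. Its paralog Phc3 read 9.73, 9.49, 9.60 and 7.95, so it was low on the array where Phc1 was high. Subunits of variant PRC1 forms, which need no Cbx protein, differed among themselves in iPS cells. Those called higher than at Day0 included L3mbtl2 by 1.88, Kdm2b, which binds unmethylated CpG, by 1.64, Pcgf6 by 1.56, Mga by 1.53 and Rybp by 1.48. Others were not called, with differences of 0.88 for Pcgf3, 0.58 for Bcor, 0.23 for Bcorl1, 0.18 for E2f6, 0.13 for Pcgf1, -0.37 for Pcgf5 and -0.61 for Yaf2, a paralog of Rybp. Pcgf3 also stood 0.98 above Day0 at 3W+Dox, just short of a call. Scml2 read 4.63 at Day0, below the 25th percentile of all values (5.07), and 6.83 in iPS cells, so its difference of 2.20 is inexact. Usp7, a deubiquitylase, was higher by 1.64 and Auts2 by 1.75.

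The catalytic ubiquitin ligases of PRC1 differed from each other. Rnf2, which encodes Ring1b, read 9.86 at Day0, 10.32 at 3W+Dox, 10.41 after withdrawal and 11.20 in iPS cells. Ring1, which encodes Ring1a, read 8.40, 7.79, 7.76 and 7.43. Rnf2 was highest and Ring1 lowest in iPS cells, and the Rnf2 difference from Day0 (1.34) was called while that of Ring1 (-0.98) was not. Of 6 genes of the histone H2A deubiquitylase and of the demethylases that remove the PRC2 mark, 1 was called in iPS cells against Day0. Over all named genes 13.1% were called higher and 12.4% lower. The called gene was Asxl1, higher by 1.03, while the demethylases Kdm6a and Kdm6b differed by 0.54 and -0.32.

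The chromobox genes that belong to heterochromatin and not to Polycomb serve as a comparison for the Cbx family. Cbx1, which encodes HP1 beta, read 9.60 at Day0, 9.37 at 3W+Dox, 9.35 after withdrawal and 10.96 in iPS cells. Cbx5, which encodes HP1 alpha, read 9.67, 9.95, 9.36 and 10.20, and Cbx3 was not analysed here. Neither measured gene was called in the cultures against Day0. Cbx6, the remaining measured Polycomb chromobox gene, read 9.99, 9.96, 10.07 and 9.04 and was not called against Day0 in any population. Of the 4 Polycomb chromobox genes measured, Cbx7 was the one called in the cultures.

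**Figure D3:**
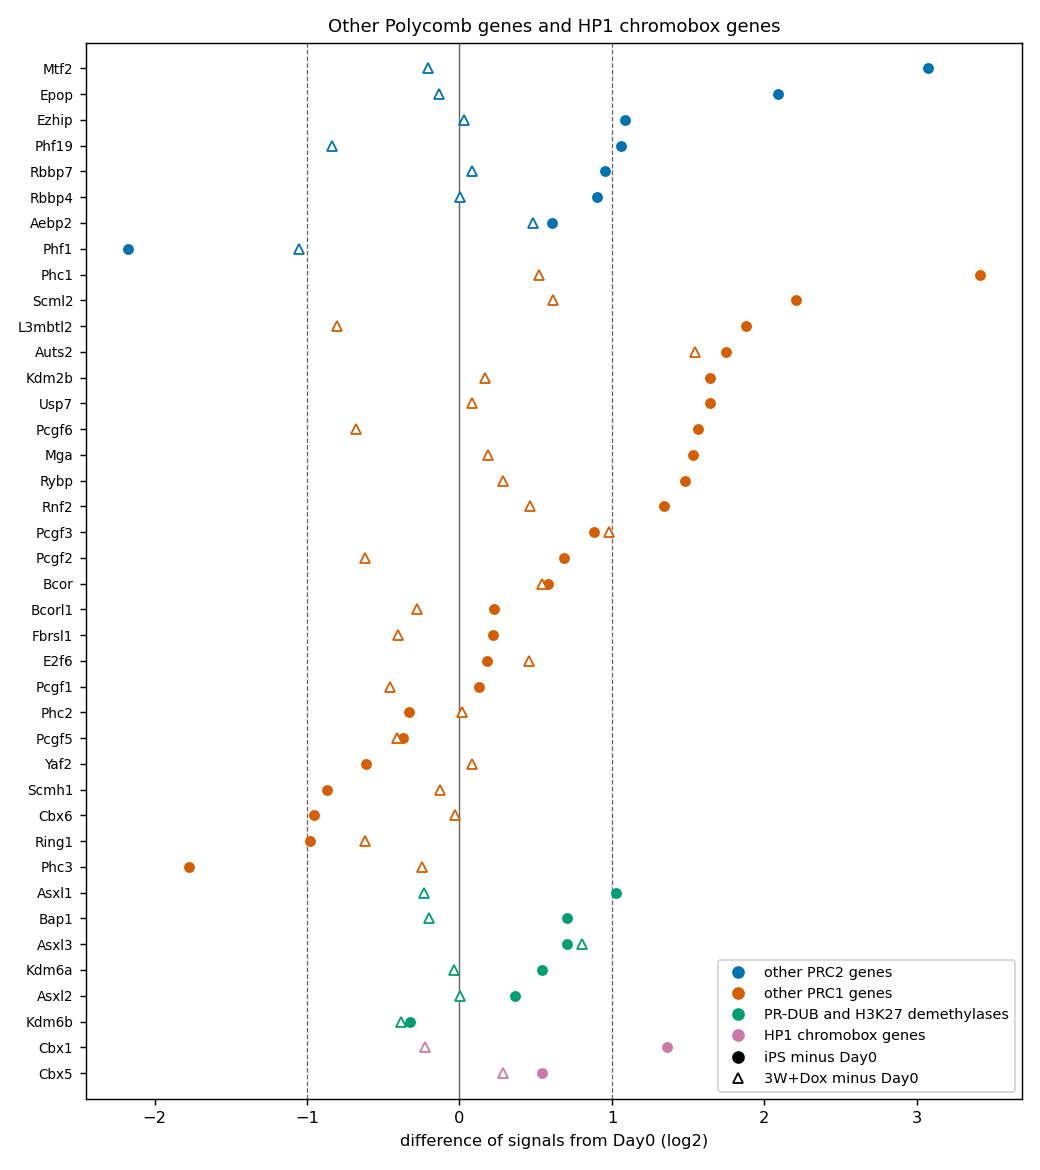
Differences of RMA signals from Day0 (log2, horizontal axis) of the other Polycomb genes and the HP1 chromobox genes (rows, coloured by group), for iPS cells (filled circles) and 3W+Dox cells (open triangles), with 2-fold as dashed lines. Both differences of a gene share the Day0 array. Phc1 and Mtf2 lie furthest to the right in iPS cells and Phf1 and Phc3 furthest to the left, while nearly all triangles lie inside 2-fold.

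Ezh2, Eed and Suz12 were higher on the iPS array than at Day0, as were cell cycle genes. In the cultures some cell cycle genes were called higher and these 3 were not. Of 14 measured proliferation genes, 14 were called higher in iPS cells than at Day0, with a median of 3.69, while Ezh2, Suz12 and Eed differed by 2.28, 2.31 and 1.79. At 3W+Dox 7 of these 14 were called higher than at Day0, with a median of 0.99, while Ezh2, Suz12 and Eed differed by -0.06, -0.02 and -0.16. In withdrawn cells 5 of 14 were called higher than at Day0, with a median of 0.60, and the same 3 Polycomb genes differed by -0.16, -0.03 and -0.21. Over all named genes 13.1% were called higher than at Day0 in iPS cells, 8.67% at 3W+Dox and 7.85% in withdrawn cells. The part of cell cycle genes in the PRC2 signals was not tested.

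Markers of other cell types also differed between Day0 and the cultures, those of fibroblasts and macrophages in the opposite direction to Cbx7. The fibroblast markers had a median signal of 6.22 at Day0, 11.66 at 3W+Dox, 11.90 after withdrawal and 9.04 in iPS cells, and all 8 were called higher in each of the other populations than at Day0. The log2 of their summed signal was 9.59, 14.84, 14.93 and 12.58. For the 8 macrophage markers it was 10.02, 13.50, 13.94 and 10.94. For the 4 club cell markers it was 15.19, 13.70, 14.70 and 8.44, and for the 6 ciliated cell markers 13.12, 9.04, 11.58 and 9.01. Fibroblast and macrophage signals were thus high on the 2 arrays where Cbx7 was low, and the part of these cells in the Cbx7 signal was not tested. After withdrawal 3 of 4 club and 5 of 6 ciliated markers were called higher than at 3W+Dox, beside 1.45% of all named genes. Called higher there were 0 of 5 alveolar type 2, 0 of 4 alveolar type 1 and 0 of 4 endothelial markers. The Cbx7 signal differed by 0.10, and the part of these cell types in it was not tested. The drug and the time in culture cannot be told apart, because both lung cultures here had been given doxycycline.

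**Figure D4:**
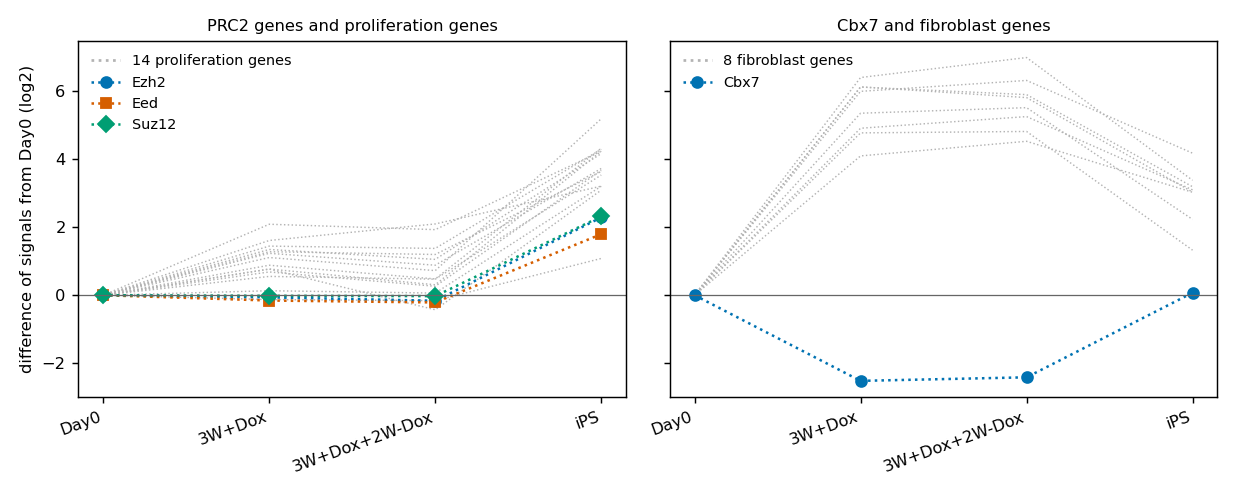
Differences of RMA signals from Day0 (log2, vertical axis) on the 4 arrays (horizontal axis), with Ezh2, Eed and Suz12 beside 14 proliferation genes on the left and Cbx7 beside 8 fibroblast genes on the right. Each point or line end is 1 array, and dotted lines join the values of a gene. The 3 PRC2 genes lie between -0.21 and -0.02 in the cultures, where most proliferation genes lie above it, and Cbx7 is low on both culture arrays, where the fibroblast genes are high.

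Cdkn2a, whose locus encodes p16 and Arf and is a known target of Cbx7 and Bmi1, read 6.85 at Day0, 8.11 at 3W+Dox, 8.57 after withdrawal and 7.12 in iPS cells. Its neighbour Cdkn2b read 7.53, 10.34, 10.51 and 8.24. Both were called higher in the 2 cultures than at Day0, where Cbx7 was called lower and Bmi1 was higher by 0.83 and 0.73, and neither was called in iPS cells against Day0. A link between these signals was not tested.

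The genes nearest in pattern to each member were found by the root mean square difference of profiles centred on their own mean, over the 4 arrays. For Ezh2 the nearest 3 were Smarcd1, a chromatin remodelling subunit (0.02 log2 units), Dnph1 (0.04) and Suz12 (0.05). Suz12 was nearest to Rnaseh2a, Tcof1 and Ncapd3, and Eed to Zic5, Fpgs and Zmym1. Jarid2 was nearest to Fancm, Pola1, a DNA polymerase subunit, and Ap3b2, and Cbx2 to Rims3, Ninl and Zfp770. Cbx7 had no such close match, its nearest genes being Ldhb, a lactate dehydrogenase subunit (0.25), Pim3 (0.25) and Camsap3 (0.26). Bmi1 was nearest to Metrnl (0.01), Tgfbr2, a TGF-beta receptor (0.05), and Atxn1 (0.07). With 4 arrays these distances describe the profiles and carry no test, and ranking by correlation gave mostly other genes, with 0 or 1 of the nearest 5 shared for each member.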

How the data were processed

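RNA of 4 mouse cell populations was measured on Affymetrix arrays, 1 per population, with groups taken from the sample titles. The authors deposited log2 signals from RMA, which corrects background, normalizes quantiles and summarises probes by median polish, run in affy under R 3.0.2 per the submitters' processing notes. The log2 scale follows from their range of 1.70 to 13.85 and is not labelled. Quantile normalization within RMA makes the arrays' distributions alike, so a shift shared by most genes would not be seen. The sources used here give neither the genome build nor the version of the probe annotation. Of 25206 probe sets, 23185 had 1 gene symbol in the platform annotation and 2021 had none or more than 1. Differences of log2 signals were computed for 6 comparisons with Python 3.11.15 and pandas 2.3.3, with no test. The calling code was run on simulated arrays with little noise and large changes planted in bright genes only. That checks the code and cannot tell how often real calls are wrong. The number of arrays limits the precision. Named are the 9 members, other Polycomb genes called at 2-fold (up to 6 per comparison by size, and further ones chosen after their values were seen), a few fixed genes and the nearest 3 genes in pattern, without predicted or clone-named genes, receptor and immunoglobulin segments and small RNAs. The members and lists were chosen with earlier results of these data known. Alternatives were a 4-fold threshold, other filters on dim probe sets, a second quantile normalization, centring, a floor and another measure of likeness.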

Additional observations from a re-analysis of the deposited data

How the results depend on the processing

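The 9 genes' differences kept their side of 2-fold in 161 of 162 values under centring of arrays on their brighter genes, repeated quantile normalization and a floor at the 25th percentile, the exception being Bmi1 between iPS and Day0 with the floor (-0.77). The floor (5.07) could change only differences that use Bmi1 on the iPS array, the only member signal below it. All other floor values were fixed by construction, and RMA had already normalized quantiles, so 161 of 162 is a weak check. The sign turned in 5 of the 162, all of them differences of at most 0.07 as deposited (Suz12 after withdrawal against 3W+Dox and against Day0, Cbx8 after withdrawal against Day0 and Ezh1 in iPS cells against Day0). Scaling moved no member's difference by more than 0.13 log2 units. At 4-fold, 3 members were higher in iPS cells than at Day0 in place of 5, and without the filter on dim probe sets 1 member, Bmi1, was lower in iPS cells against Day0, 3W+Dox and withdrawn cells each, in place of 0. The other 68 of 72 counts of members stayed within 1.5 times. Of the other Polycomb genes, the 4-fold threshold left 0 higher and 0 lower between 3W+Dox and Day0 and 0 higher between withdrawn cells and Day0, 4 were higher and 1 lower in iPS cells than at Day0, and 5 were higher and 0 lower in iPS cells against 3W+Dox and again against withdrawn cells, in place of 14 higher and 2 lower, and of 14 and 4. These counts fell because the threshold is stricter. Of 23185 named genes, 827 were 4-fold higher and 1196 lower in iPS cells against 3W+Dox, and 888 and 1170 against withdrawn cells. At 2-fold the shares were 11.4% and 12.4%, and 11.5% and 12.5%. Against Day0 at 4-fold, 1134 were higher and 1368 lower in iPS cells, 1000 and 667 at 3W+Dox, and 939 higher in withdrawn cells. Ranked by Pearson correlation, the 5 nearest genes shared 0 with those reported for Ezh2, Jarid2, Cbx2 and Cbx7 and 1 for Eed, Suz12 and Bmi1, and the cause was not tested. All 12 positions between Day0 and iPS moved by at most 10 percentage points under centring. No paired analysis was possible because each group has 1 array, and no array could be left out.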
